A study of Mus musculus with 8 samples.

Results

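Subplate-like neurons were taken from the single-cell profiles of sorted Ebf2-EGFP+ cells from mouse cortex at E15.5. Members were the 250 cell barcodes chosen by the highest mean score of 5 subplate markers, Nr4a2, Ctgf, Nxph4, Lpar1 and St18. They were 250 of 3000 barcodes (8.33%) and 250 of the 2225 barcodes eligible for the choice (11.2%). A barcode was eligible if it held at most 25000 UMIs (molecular barcodes, of which each marks 1 captured RNA molecule) and fewer than 5 Reln UMIs per 10000, which left out the Reln-rich Cajal-Retzius (CR) neurons of layer 1. Each marker was scaled to UMIs per 10000, log-transformed and turned into a z-score over the eligible barcodes, and the 5 z-scores were averaged. The other 1975 eligible barcodes are called the remaining barcodes below.

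The strain was Tg(Ebf2-EGFP)FB58Gsat, a bacterial artificial chromosome transgenic line in which Ebf2 regulatory sequence drives EGFP, and the cells were untreated. Cortical cells of about 8 embryos were pooled, sorted for EGFP by FACS and run on the 10x Genomics Chromium. The labels list 8 samples of 1 group, but 1 matrix holds all of their cells and nothing ties a cell to its sample, so the data are 1 pooled library. Barcodes are not replicates, so no test between samples was possible, no p-values are given, and each interval, set at 95%, covers the error of counting alone.

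Subplate neurons are among the earliest born neurons of the cortex. They arise with the CR neurons in the preplate and come to lie below layer 6 once the cortical plate has split that layer. There they receive early thalamic axons and send out some of the first cortical axons, and many of them are lost after birth. The 5 markers have different roles. Nr4a2 is an orphan nuclear receptor, St18 a zinc finger factor of the MYT1 family, Ctgf a secreted matricellular protein, Nxph4 a neurexophilin, whose family binds neurexins, and Lpar1 a receptor for lysophosphatidic acid.

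Members were slightly shallower than the remaining barcodes. Totals of members ran from 10718 to 24156 UMIs with a median of 13452, and the median of the remaining barcodes was 15039. The median mitochondrial share was 3.0% in members and 2.92% in the remaining barcodes. Both Xist and Y-linked UMIs, a sign of 2 cells in a droplet, were held by 1 member (0.4%) and by 19 remaining barcodes (0.962%). All 3000 barcodes were distinct.

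The score had no gap at its limit. The last barcode inside had a mean z-score of 0.518 and the first outside 0.516, while the highest was 5.17 and the median member 0.83. Most members held few of the markers, since 12 members (4.8%) had UMIs of 1 marker, 131 (52.4%) of 2, 102 (40.8%) of 3 and 5 (2%) of 4. No member held all 5. The commonest combination was Nr4a2, Nxph4 and St18, found in 73 members, followed by Nr4a2 with Nxph4 in 65.

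As the choice itself sets them, the levels of the 5 markers are a description only. Nr4a2 had 0 UMIs in the lowest member, 3 in the median member and 38 in the highest, with a summed level of 306 CPM (UMIs of the gene per 1000000 UMIs) in members and 66.7 CPM in the remaining barcodes. Nxph4 had 0, 2 and 10 UMIs in the lowest, median and highest member, and 162 against 34.5 CPM. St18 had 0, 1 and 10 UMIs, and 69.0 against 9.73 CPM. The other markers were rare. Lpar1 had 75 UMIs, at most 5 of them in one member, and was seen in 50 members. The 1975 remaining barcodes held 4 Lpar1 UMIs, so nearly every eligible barcode with Lpar1 was a member. For 4 members Lpar1 was the only marker with a UMI. Ctgf had 15 UMIs in 12 members and 0 UMIs in the 1975 remaining barcodes, so every eligible barcode with a Ctgf UMI was a member. Ctgf was not limited to them in the sort, since the 288 barcodes left out for Reln held 16 Ctgf UMIs.

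To describe how far the markers go together, each marker was left out in turn, 250 barcodes were chosen on the other 4, and the absent marker was then compared. Members were chosen with earlier results of these data known, so the outcome describes the markers and is not an independent check. In this comparison 4 of the 5 markers were at least 1.5-fold higher in the chosen barcodes. Lpar1 stood at 10.1 against 1.40 CPM, a log2 ratio of 2.85 (2.17 to 3.52). Nxph4 stood at 100.1 against 41.5 CPM, a log2 ratio of 1.27 (1.10 to 1.44). Nr4a2 stood at 144 against 85.1 CPM, a log2 ratio of 0.75 (0.62 to 0.89). Ctgf rested on 5 UMIs in the chosen barcodes and 10 in the others, and its log2 ratio of 2.11 had an interval from 0.21 to 3.80. St18 was the exception. It stood at 17.9 against 15.7 CPM, a log2 ratio of 0.19 whose interval from -0.22 to 0.58 includes no difference.

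**Figure D1:**
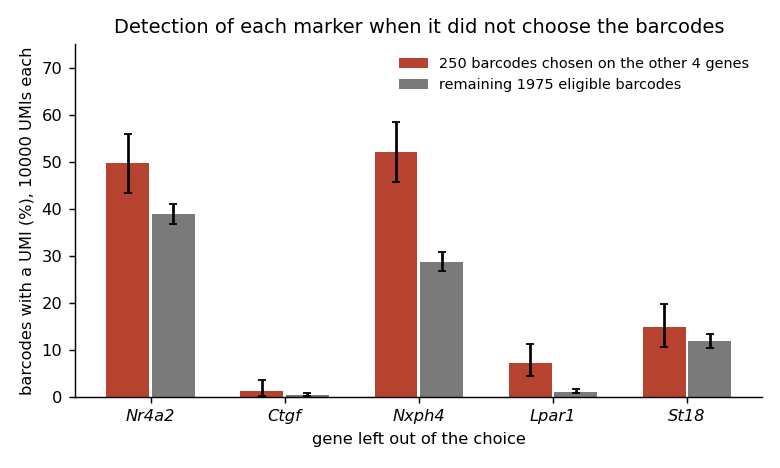
Share of barcodes with a UMI of each marker (%, every barcode thinned to 10000 UMIs) when that marker did not take part in the choice, for the 250 barcodes chosen on the other 4 markers (red) and the remaining 1975 eligible barcodes (grey). Bars start at 0 and error bars are exact binomial 95% intervals; Nr4a2 was seen in 49.6 against 38.8%, Nxph4 in 52 against 28.7%, Lpar1 in 7.2 against 1.11% and St18 in 14.8 against 11.8%.

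The choice was also repeated on separate UMIs. The UMIs of every barcode were split at random, the members were chosen on one part and the genes were read in the other. Of the 250 barcodes so chosen, 170 (68%) were members of the full choice.

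A few members went against the label. Lpar1 is also a gene of ventricular zone progenitors, and 6 members (2.4%) held UMIs of at least 3 of the 7 progenitor genes Pax6, Sox2, Hes1, Hes5, Nes, Mki67 and Top2a. In the remaining barcodes this was true of 8 (0.405%). All 6 held Lpar1, and only 1 of them held Nr4a2, Ctgf or St18. They carried 28 of the 31 Top2a UMIs of the members, 214 of the 310 Hmgb2 UMIs and 54 of the 70 Neurog2 UMIs. Their summed level of 30 other subplate genes, described next, was 369 CPM (251 to 524), against 1678 CPM (1636 to 1722) in the other 244 members. This group was defined after its values had been seen, and some of the values that rest on it are given with and without it below.

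The main question was whether genes that took no part in the choice also mark the members. The members and the gene lists were chosen with earlier results of these data known. The counts below therefore describe the members and are not an independent check of the label. Of a list of 30 further subplate genes, 19 had enough UMIs to be compared, that is at least 200 over the eligible barcodes. In members 14 of these 19 were at least 1.5-fold higher than in the remaining barcodes and 1 was at least 1.5-fold lower, with a median log2 ratio of 1.46. Over all 9005 genes compared, 7.3% were at least 1.5-fold higher and 3.74% at least 1.5-fold lower, with a median of 0.08. Without the progenitor-marked barcodes the count was 15, as Serpini1 came to 0.60 from 0.57.

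Channel, adhesion and transport genes led the subplate list. Kcnab1, a beta subunit of voltage-gated potassium channels, had 0, 1 and 7 UMIs in the lowest, median and highest member and 0, 0 and 9 in the remaining barcodes. Its level was 90.4 CPM (80.8 to 101) against 16.1 CPM (14.7 to 17.6), a log2 ratio of 2.49 (2.28 to 2.69). At an equal 10000 UMIs per barcode it was seen in 47.2% of members and 11.7% of the remaining barcodes. It was seen in 4.4% of 250 upper-layer-like barcodes, described below. How much free RNA adds to such shares was not measured. Cdh10, a classical cadherin, stood at 39.4 against 7.68 CPM, a log2 ratio of 2.36 (2.05 to 2.67), with a highest count of 5 UMIs in either group. Abca8a, an ABC transporter, stood at 38.6 against 7.62 CPM, a log2 ratio of 2.34 (2.03 to 2.65). Pls3, which bundles actin, was at 112 against 32.6 CPM with a log2 ratio of 1.78 (1.61 to 1.95), and 49.6% of members held it against 20.2% of the remaining barcodes. The highest member held no more UMIs of these 4 genes than the highest remaining barcode, while the share of barcodes with the gene differed.

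Receptor and vesicle genes of the list followed. Ngfr, a neurotrophin receptor, stood at 41.4 against 12.4 CPM, a log2 ratio of 1.74 (1.45 to 2.02). Gabra5, a GABA-A receptor subunit, was at 71.5 against 21.9 CPM with a log2 ratio of 1.71 (1.49 to 1.92). Sv2b, a synaptic vesicle glycoprotein, was at 47.6 against 14.7 CPM with a log2 ratio of 1.69 (1.43 to 1.95). Igfbp5, Csmd3, Zdhhc2, Ogfrl1, Tmem163, Hs3st4 and Pde1a completed the 14, with log2 ratios from 0.94 for Pde1a to 1.62 for Igfbp5. Tmem163, a zinc transporter, was the one gene of the 14 that an alternative setting took below 1.5-fold, and its log2 ratio of 1.24 became 0.21 when Reln-rich barcodes were admitted to the choice.

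Not all genes of the list differed. Rcan2, a regulator of calcineurin, had a log2 ratio of 0.08 (-0.01 to 0.17) and was seen in 95.6% of members and 93.9% of the remaining barcodes. Serpini1, which encodes neuroserpin, was at 0.57 (0.47 to 0.67), just under the limit, Zfpm2 at 0.29 (0.01 to 0.56) and Slc8a2 at -0.47 (-0.87 to -0.09). Nr4a3, a close relative of the marker Nr4a2, was lower, at 17.7 against 40.1 CPM, a log2 ratio of -1.18 (-1.57 to -0.81). The 11 genes too sparse to compare were Cplx3, Moxd1, Svil, Cdh18, Inhba, Unc5c, Kcnt2, Trh, Adra2a, Chrna5 and Sema3e, and Moxd1 and Chrna5 had no UMI in any member.

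**Figure D2:**
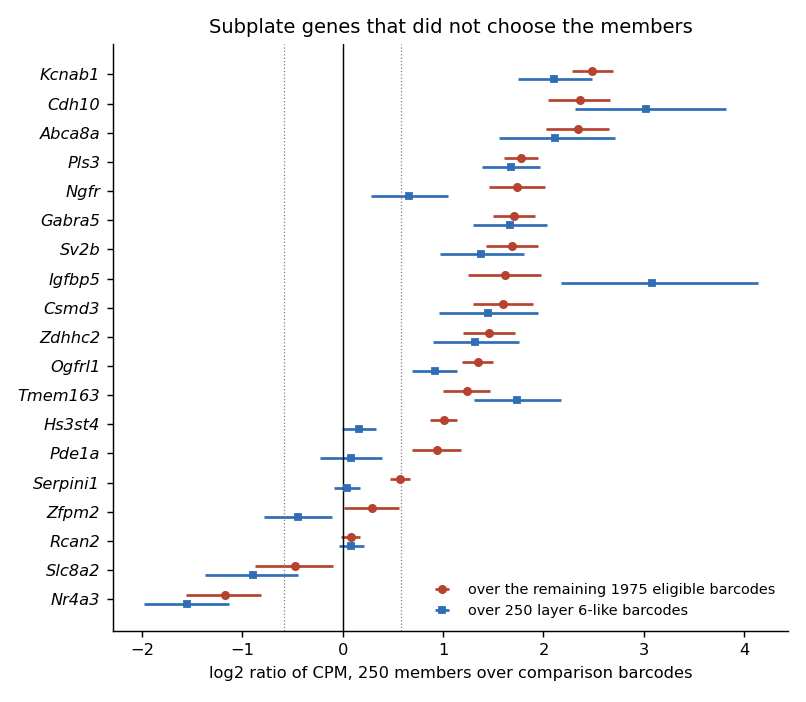
Log2 ratios of CPM for the 19 subplate genes with enough UMIs, in the 250 members over the remaining 1975 eligible barcodes (red circles) and over 250 layer 6-like barcodes (blue squares), with exact 95% intervals for counting error. Dotted lines mark 1.5-fold; 14 genes lie to the right of them against the remaining barcodes and 12 against layer 6-like barcodes, while Nr4a3 lies to the left in both.

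The subplate genes formed a gradient rather than a step along the score. Summed over the 30 genes, the level was 1775 CPM (1678 to 1875) in the 50 barcodes ranked first, 1642 CPM (1574 to 1711) in ranks 51 to 150 and 1591 CPM (1527 to 1656) in ranks 151 to 250. Outside the members it was 1351 CPM (1291 to 1412) in ranks 251 to 350, 1018 CPM (996 to 1041) in ranks 501 to 1000 and 748 CPM (733 to 764) in ranks 1501 to 2225. The summed level was not low in CR-type barcodes either. The 288 barcodes left out for Reln held 1227 CPM (1197 to 1259), above the 910 CPM (899 to 921) of all remaining barcodes. The number of genes held was not raised there. At an equal 10000 UMIs the median barcode held 4 of the 30 genes in both groups, and 8 in members. A few abundant genes weigh on the sum, as Rcan2 made up 8727 and Serpini1 5758 of the 27952 UMIs in the remaining barcodes. Single barcodes overlapped widely. Members ran from 2.32 to 41.2 UMIs of these genes per 10000 with a median of 15.52, and the remaining barcodes from 0.596 to 32.6 with a median of 8.32. Within the members the intervals of neighbouring rank groups overlapped, and the interval of ranks 151 to 250 lay above that of ranks 251 to 350.

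**Figure D3:**
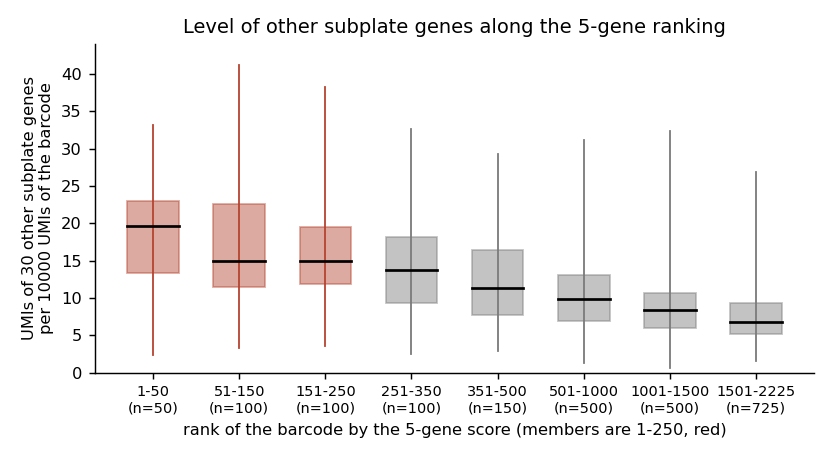
UMIs of the 30 other subplate genes per 10000 UMIs of each barcode, by the rank of the barcode in the 5-marker score, with members (ranks 1 to 250) in red. Black lines are medians, boxes the middle 50% of barcodes and thin lines the full range; the median was 19.6 in ranks 1 to 50 and 6.83 in ranks 1501 to 2225, and the ranges overlap throughout.

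Members differed among themselves by the markers that admitted them. The 209 members with Nxph4 had 1707 CPM (1660 to 1755) of the 30 subplate genes, and the 41 without it 1352 CPM (1260 to 1448). The 12 members with UMIs of 1 marker had 1153 CPM (1002 to 1320), and the 131 with 2 markers 1735 CPM (1675 to 1796). More markers did not mean a higher level, since the 102 members with 3 markers had 1588 CPM (1524 to 1654). The 44 members with Lpar1 but without the progenitor genes had 1892 CPM (1787 to 2002), the highest of these groups together with the 5 members that held 4 markers. Members with St18 had 1588 CPM (1532 to 1645) and those without it 1719 CPM (1655 to 1784).

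Most members held at least 1 of the leading subplate genes. For 7 genes that differed most (Kcnab1, Cdh10, Abca8a, Pls3, Gabra5, Sv2b and Ngfr, picked after their values had been seen), 48.4% of members (42.1 to 54.8%) held at least 3 at an equal 10000 UMIs per barcode. This share was 22.4% (17.4 to 28.1%) in the 250 barcodes ranked next, 8.15% (6.98 to 9.45%) in all remaining barcodes, and 2% (0.653 to 4.61%) in upper-layer-like barcodes. At least 1 of the 7 was held by 91.2% of members and 34.8% of upper-layer-like barcodes. Since each gene was picked for its difference, these shares restate the single genes, and whether the genes go together within the members was not tested.

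Genes of layer 6, the layer that lies next to the subplate, were also higher in members. Of 15 layer 6 corticothalamic genes 9 were at least 1.5-fold higher and 2 at least 1.5-fold lower than in the remaining barcodes, with a median log2 ratio of 0.78. The shares over all genes were 7.3% higher and 3.74% lower. Tle4, a Groucho corepressor, stood at 142 against 68.5 CPM, a log2 ratio of 1.05 (0.91 to 1.19). Tbr1, the T-box factor of early born cortical neurons, stood at 433 against 255 CPM, a log2 ratio of 0.76 (0.68 to 0.84), and Ntsr1, the neurotensin receptor of corticothalamic cells, at 40 against 12.4 CPM with a log2 ratio of 1.69 (1.40 to 1.97). Akap7, Mef2c, Kitl, Wnt7b, Lmo3 and Grik3 were the other higher genes, with log2 ratios from 0.78 to 1.02. Of these 9, Tbr1 came to 0.53 when Nr4a2 was left out of the choice and Wnt7b to 0.47 when Nxph4 was, both under 1.5-fold. The lower genes were Syt6 with -1.10 (-1.57 to -0.65) and Crym with -0.76 (-0.89 to -0.63), of which Crym came to -0.40 when ranks replaced the z-scores and Syt6 to -0.46 when Nxph4 was left out of the choice. Sox5 differed little, with 0.12 (0.03 to 0.21).

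The lists of layer 5 and of the upper layers each held more lower than higher genes, while of all genes 7.3% were higher and 3.74% lower. Of 8 measured layer 5 subcerebral genes 4 were at least 1.5-fold lower and 1, Crim1, at least 1.5-fold higher, with a median log2 ratio of -0.57. Fezf2, a selector of subcerebral neurons, had 0, 1 and 21 UMIs in the lowest, median and highest member against 0, 5 and 31, and stood at 197 against 392 CPM, a log2 ratio of -1.0 (-1.11 to -0.89). Ldb2, Igfbp4 and Diaph3 were the other lower genes, and on separate UMIs the count of 4 became 2. Ldb2 lay under 1.5-fold in 8 alternatives, with -0.34 when Nxph4 was left out of the choice, Igfbp4 came to -0.45 without Nr4a2, and Crim1 to 0.34 in members with Y-linked UMIs only. Of 11 measured upper-layer genes 6 were at least 1.5-fold lower, led by the POU factors Pou3f1 with a log2 ratio of -2.64 (-3.71 to -1.75) and Pou3f3 with -1.72 (-2.28 to -1.22), and 2 were higher.

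Because many layer 6 genes were higher in them, members were compared directly with the 250 non-member barcodes that scored highest on the layer 6 markers Tle4, Foxp2, Syt6, Crym and Rprm. Among the 250 highest layer 6 scores of all eligible barcodes 20 were members (8%), below the 11.2% that members made up of these barcodes. Genes with at least 100 UMIs over both groups were compared, and of 6906 such genes 7.04% were at least 1.5-fold higher in members and 1.91% at least 1.5-fold lower. Of the 19 subplate genes 12 were higher and 2 lower, with a median log2 ratio of 1.32 against 0.09 for all genes. Of 10 layer 6 genes that had not chosen either group 1 was higher and 0 were lower, with a median of 0.01. The other 9 of these layer 6 genes lay within 1.5-fold.

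Single genes showed how members departed from layer 6-like barcodes. Syndig1l, a relative of the synapse differentiation protein Syndig1, stood at 76.9 against 5.92 CPM, a log2 ratio of 3.70 (3.07 to 4.40), whereas Syndig1 itself was lower in members, at 12.4 against 38.2 CPM with -1.63 (-2.15 to -1.13). Prss12, which encodes the secreted protease neurotrypsin, stood at 59.4 against 4.58 CPM, a log2 ratio of 3.70 (2.99 to 4.51). Epha7, an ephrin receptor, stood at 156 against 27.2 CPM, a log2 ratio of 2.52 (2.21 to 2.84), and Cdh10 at 39.4 against 4.85 CPM, a log2 ratio of 3.02 (2.31 to 3.82). Lower in members were Lpl, a lipase, at 103 against 285 CPM with -1.47 (-1.65 to -1.30), and Fezf2 at 197 against 414 CPM with -1.08 (-1.21 to -0.95). Tcf4, an E-protein factor, was seen in 58.8% of members and 86% of layer 6-like barcodes. Hmgb2 and Dbi were also among the 10 highest, but they rested in part on the 6 progenitor-marked members, without which the log2 ratio of Hmgb2 was 1.33 (0.79 to 1.89) in place of 2.98 and that of Dbi 1.12 (0.74 to 1.5) in place of 2.0.

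Against 250 layer 5-like barcodes, chosen on Fezf2, Bcl11b, Ldb2, Crim1 and Pcp4, the subplate and the layer 6 genes were both higher in members. Of 19 subplate genes 15 were at least 1.5-fold higher and 2 lower, and of 15 layer 6 genes 10 were higher and 2 lower. Over 7007 genes 10.3% were higher and 2.97% lower. Kcnab1 had a log2 ratio of 3.57 (3.03 to 4.15) and Npy, a neuropeptide, 2.81 (2.48 to 3.16), at 147 against 20.9 CPM. Lower in members were Nrp1, with -2.11 (-2.47 to -1.77), and Dab1, which relays the Reelin signal, at 95.5 against 280 CPM with -1.55 (-1.73 to -1.38).

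Against 250 upper-layer-like barcodes, chosen on upper-layer markers that included Cux2, Pou3f2, Pou3f3 and Lhx2, more genes differed. Of 7017 genes 12.9% were at least 1.5-fold higher in members and 6.91% at least 1.5-fold lower. Here 16 of 19 subplate genes and 13 of 14 layer 6 genes were higher, and 8 of 12 genes of newborn neurons were lower. Against layer 6-like barcodes 2 of 9 genes of newborn neurons were higher and 2 lower. Hs3st4, a heparan sulfate sulfotransferase, stood at 165 against 11.8 CPM with a log2 ratio of 3.80 (3.36 to 4.28), and Nxph3, a relative of the marker Nxph4, at 155 against 17.7 CPM with 3.13 (2.76 to 3.52). Rnd2, a small GTPase of migrating neurons, was lower, at 26.8 against 206 CPM with -2.95 (-3.27 to -2.64).

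The genes with the highest ratios over the remaining barcodes were low in CPM but spread over many members. Syndig1l (chr12:84677277-84698831, minus strand, GRCm38) had at most 9 UMIs in a member and was held by 38% of members and 8.30% of the remaining barcodes, with a log2 ratio of 2.81 (2.58 to 3.05). Caln1 (chr5:130369455-130847412, plus strand), a calcium sensor gene, stood at 168 against 40.7 CPM with 2.05 (1.91 to 2.19). Nfe2l3 (chr6:51432670-51458768, plus strand), a bZIP factor, stood at 140 against 38.8 CPM with 1.85 (1.70 to 2.0). Nog, which encodes the BMP antagonist Noggin, stood at 32.7 against 5.79 CPM with 2.49 (2.15 to 2.84), and Grm3, a metabotropic glutamate receptor, at 36.9 against 7.78 CPM with 2.25 (1.93 to 2.56). Prss12, Cryab, Osbpl1a, Cav1, BC048546, Epha7, Kcnab1, Pls3, Cdh10 and Abca8a were the other genes among the 15 highest, with log2 ratios from 1.78 to 2.49.

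The 10 lowest genes were mostly transcription factors and receptors. Nrp1 (chr8:128358604-128503363, plus strand), a semaphorin and VEGF co-receptor, stood at 23.7 against 142 CPM with a log2 ratio of -2.59 (-2.92 to -2.28), and was held by 13.2% of members and 39.6% of the remaining barcodes. Bhlhe22, a bHLH factor, was at 22.8 against 101 CPM with -2.15 (-2.48 to -1.83). Neurod1, a bHLH factor of newborn neurons, was at 25.3 against 90.0 CPM with -1.83 (-2.15 to -1.52), and 34 of its 90 UMIs in members lay in a single barcode. Tcf4 was at 161 against 453 CPM with -1.49 (-1.61 to -1.37). Fgfr1, Lmo1, Mycn, Ttc28, Zbtb20 and Tcf7l2 completed the 10. Tcf7l2 differed in another way, since it was held by 3.6% of both groups and its lower level of 3.94 against 36.3 CPM rested on how many UMIs its few barcodes held, up to 3 in members and 68 in the rest. Not all 10 genes were lower in members than in layer 6-like barcodes. There Neurod1 (7.27 CPM), Zbtb20, Fgfr1, Ttc28 and Tcf7l2 had lower summed levels than in members. Nrp1 (35.3 CPM), Bhlhe22, Lmo1, Mycn and Tcf4 had higher ones.

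**Figure D4:**
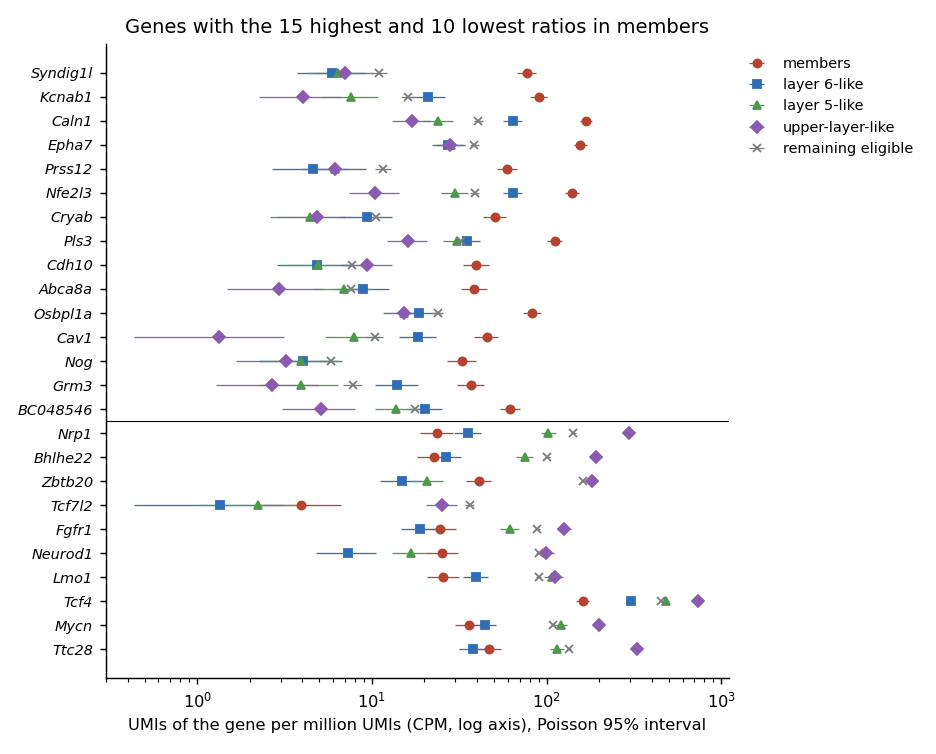
Summed level (CPM, log axis) of the 15 genes with the highest and the 10 with the lowest ratio in members over the remaining eligible barcodes, in members (red circles), layer 6-like (blue squares), layer 5-like (green triangles) and upper-layer-like barcodes (purple diamonds, 250 barcodes each) and the remaining 1975 eligible barcodes (crosses), with Poisson 95% intervals. Above the line the members lie to the right of every other group; below it the upper-layer-like barcodes lie far to the right for Nrp1 at 298 CPM and Ttc28 at 330 CPM, while members and layer 6-like barcodes are low.

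Relatives of the 5 markers did not all follow them. Their lists are short, and of all genes 7.3% were higher and 3.74% lower than in the remaining barcodes. Against layer 6-like barcodes these shares were 7.04% and 1.91%. Beside Nr4a2, the NR4A genes Nr4a1 and Nr4a3 were lower in members, with log2 ratios of -0.60 (-0.81 to -0.40) and -1.18 (-1.57 to -0.81), and Nr4a1 came to -0.57, under 1.5-fold, without the progenitor-marked barcodes. In the list of NR4A and other nuclear receptor genes 3 of 6 were at least 1.5-fold lower and 1, Nr2f1, higher, at 90.1 against 47.7 CPM with 0.92 (0.74 to 1.09). Among neurexophilins, neurexins and neuroligins 4 of 14 were higher and 2 lower, whereas against layer 6-like barcodes 0 of 10 were higher and 0 lower. Against the remaining barcodes Nxph3 was at 155 against 64.3 CPM (log2 ratio 1.27, 1.13 to 1.41) and Nxph1 at 4.51 against 10.8 CPM (-1.26, -2.08 to -0.54). Nrxn2, which encodes a neurexin, was at 0.44 (0.33 to 0.55), under the limit. Of the lysophosphatidic acid list 2 of 10 were higher, both phospholipid phosphatase-related genes, Plppr4 with 1.01 (0.80 to 1.22) and Plppr5 with 0.65 (0.34 to 0.95), and none was lower. The other receptors of that lipid, Lpar2 to Lpar6, were too sparse to compare. Myt1l, a relative of St18, was at 246 against 133 CPM with 0.88 (0.78 to 0.99), and Myt1 was too sparse. Of the CCN and growth factor binding list 1 of 8 was higher, Igfbp5, and 2 lower, Igfbp4 and Fstl1, and Cyr61, the CCN relative of Ctgf, was at -0.30 (-0.59 to -0.03).

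In 3 lists of neuronal function 26.1 to 38.1% of the measured genes were higher and 8.70 to 9.52% lower, against 7.3% and 3.74% of all genes. Fewer were higher against layer 6-like barcodes, with 1 of 15 glutamate and GABA genes, 3 of 15 ion channel genes and 4 of 22 vesicle genes. There 0, 2 and 2 were lower, and of all genes 7.04% were higher and 1.91% lower. Against the remaining barcodes 8 of 21 glutamate and GABA receptor and transporter genes were at least 1.5-fold higher and 2 lower. Slc17a7, the vesicular glutamate transporter of mature cortical neurons, stood at 74.1 against 35.3 CPM with a log2 ratio of 1.07 (0.87 to 1.27), whereas Slc17a6, its relative of young neurons, was at 0.02 (-0.50 to 0.51). Slc12a5, the neuronal chloride exporter, was at 11.0 against 5.96 CPM with 0.88 (0.34 to 1.39). Of the ion channel genes 6 of 22 were higher (7 without the progenitor-marked barcodes) and 2 lower. Kcnip4, a modulator of A-type potassium channels, was at 22.0 against 4.33 CPM (2.34, 1.92 to 2.76). Kcna1 and Kcnq3 were the lower ones, with -1.58 (-2.19 to -1.03) and -1.07 (-1.45 to -0.71). Of the vesicle release genes 6 of 23 were higher, Pclo with 1.08 (0.82 to 1.33) first among them, and 2 were lower, Syt4 and Rab3c. General release genes differed little, such as Snap25 with 0.03 (-0.07 to 0.14) and Vamp2 with 0.23 (0.14 to 0.31).

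Surface molecules differed in both directions. Among cell adhesion and matrix genes 11 of 32 were higher and 4 lower. For this and the next 2 lists the shares over all genes were 7.3% higher and 3.74% lower. Cntn5, a contactin, was at 40.8 against 14.7 CPM with 1.47 (1.19 to 1.75) and Pcdh7, a protocadherin, at 43.1 against 20 CPM with 1.11 (0.85 to 1.37), while Pcdh8 was at 27.0 against 66.2 CPM with -1.29 (-1.60 to -1.0) and Cntn2 at 47.6 against 92.7 CPM with -0.96 (-1.19 to -0.74). Of the axon guidance genes 5 of 32 were higher and 9 lower, with a median log2 ratio of -0.05. Its higher genes were Epha7 and Epha3, both ephrin-A receptors, the semaphorins Sema3f and Sema6a, and Plxnd1, a semaphorin receptor. Plxnd1 had a log2 ratio of 0.82 that lay under 1.5-fold in 6 alternatives, among them 0.32 on separate UMIs and 0.07 in members with Y-linked UMIs only. Its lower genes included Nrp1 and Nrp2, the axonal receptors Robo1 and Dcc, and the ligands Sema3c and Slit3. Of 35 projection neuron transcription factors 6 were higher and 4 lower (5 without the progenitor-marked barcodes), with a median of -0.03. Among the higher ones Nfe2l3 and Tshz3 (1.10, 0.93 to 1.26) were found in many barcodes. Pbx3, also higher, was held by 4.4% of members and 4.61% of the remaining barcodes and reached 26 UMIs in 1 member.

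**Figure D5:**
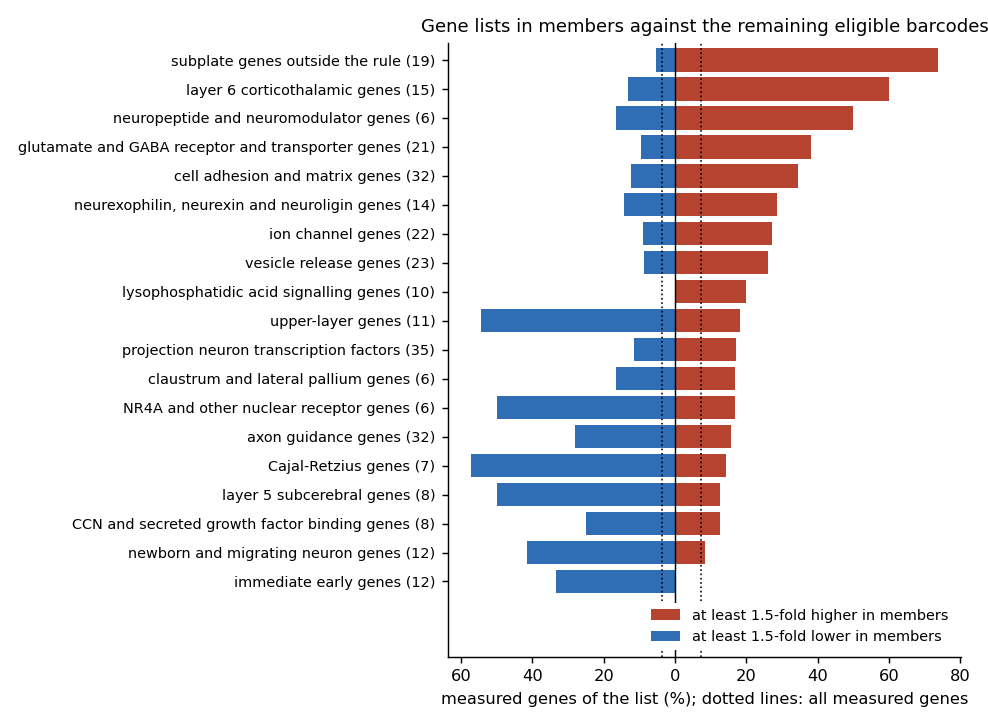
Share of the measured genes of each list (%, number in brackets) that were at least 1.5-fold higher (red, to the right) or lower (blue, to the left) in the 250 members than in the remaining 1975 eligible barcodes, for lists with at least 5 measured genes. Dotted lines mark the shares over all 9005 genes, 7.3% higher and 3.74% lower; 14 of 19 subplate genes and 9 of 15 layer 6 genes were higher, and 6 of 11 upper-layer and 4 of 7 Cajal-Retzius genes were lower.

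Markers of the other cell types that the sort could hold were counted as well, beside 7.3% of all genes higher and 3.74% lower. Of 12 genes of newborn and migrating neurons 5 were at least 1.5-fold lower, among them Rnd2, Sstr2, Neurod6 and Igfbpl1, and the pan-neuronal genes Tubb3 and Dcx differed little, with log2 ratios of -0.06 (-0.09 to -0.04) and -0.10 (-0.19 to -0.02). The 1 higher gene was Neurog2, which was held by 3.2% of members and 6.03% of the remaining barcodes, and without the progenitor-marked barcodes its log2 ratio of 1.34 became -0.69 (-1.52 to 0.05) and the count of 5 lower genes became 7. Of 7 CR genes 4 were lower and 1 higher, Cdkn1a, at 31.0 against 8.92 CPM, and the defining CR genes Trp73 and Ndnf were too sparse to compare. The 10 inhibitory neuron genes had 19 UMIs in all members together, 5.35 against 12.2 CPM, and Gad2, Slc32a1, Lhx6, Sp9 and Dlx6os1 had none. Of the 15 glial, blood, vascular and meningeal genes 7 had no UMI in members, among them Olig1, Olig2, Csf1r, Cldn5 and Pdgfrb. Of its 4 measured genes 3, the haemoglobins Hba-a1, Hba-a2 and Hbb-bs, were lower, but 6800 of the 7354 Hba-a1 UMIs of the remaining barcodes lay in 1 barcode.

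The level of radial glia and cycling genes rested in part on the progenitor-marked barcodes. Their summed level was 284 CPM in members and 200.4 CPM in the remaining barcodes, and 173 against 184 CPM without the barcodes that held at least 3 progenitor genes. Of the 3 measured genes Fabp7 and Slc1a3 were at least 1.5-fold higher and Vim was at -0.22 (-0.39 to -0.07). Without those barcodes Slc1a3 came to 0.52 (0.08 to 0.93), under 1.5-fold, Vim to -0.99 (-1.20 to -0.78), over 1.5-fold lower, and Fabp7 to 0.83 (0.65 to 1.01). For Fabp7, 185 of the 442 UMIs of members (41.9%) lay in 1 member that was not among the 6, and the gene was held by 25.6% of members and 26.8% of the remaining barcodes. Without these barcodes 664 in place of 657 genes were at least 1.5-fold higher and 374 in place of 337 at least 1.5-fold lower.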

How the data were processed

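The authors deposited counts of UMIs per gene and barcode, made with Cell Ranger 2.0.0 on build mm10, and worked on them with Seurat 2.0, as the submitters' processing notes name them. The matrix held 27998 genes and 3000 barcodes, with totals from 10718 UMIs upward. No cell annotation was used here, and the barcodes came as 1 library with no map to the 8 samples.

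Values were computed in Python 3.11.15 with numpy 2.4.6, scipy 1.17.1, pandas 2.3.3 and scanpy 1.11.5. Members were chosen by the rule in the first paragraph of the results. The members and the gene lists were chosen with earlier results of these data known. UMIs were summed over a group and given as CPM, with exact Poisson intervals. For ratios the interval was the exact conditional binomial one. For shares it was that of Clopper and Pearson, after thinning every barcode to 10000 UMIs, which all reached. PCR copies were collapsed by UMI, and the intervals leave out the spread between embryos. A gene was counted as higher or lower at a ratio of 1.5 or more among genes with at least 200 UMIs over the eligible barcodes, or at least 100 over both groups in a comparison of 2 sets of 250. The 5 markers, and those of the other set, were left out of these counts.

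The 23 lists covered subplate, layer 6, layer 5, upper-layer, claustrum, newborn neuron, Cajal-Retzius, inhibitory neuron, radial glia, glial and vascular, nuclear receptor, immediate early, neurexophilin, CCN, lysophosphatidic acid, MYT1, vesicle, ion channel, receptor, axon guidance, adhesion, neuropeptide and transcription factor genes. Named were list genes, the 15 highest and 10 lowest by log2((CPM + 10)/(CPM + 10)) with no barcode holding over 20% of the UMIs, the 10 highest and lowest against the other sets, and a few singled out after their values were seen (Hmgb2, Dbi, Neurog2, and the 7 genes counted together). Doublets were not removed in the main analysis. In an alternative, barcodes holding 5 or more Xist UMIs together with 2 or more Y-linked ones were dropped, as were the 2.3% scoring highest in Scrublet. Of 22 alternatives, 5 were added after seeing the data. Coordinates come from GENCODE on GRCm38, where 27645 gene identifiers were found. The values of 3 list genes are not reported here. The steps were tested on simulated data, in which no marker was as sparse as Ctgf, Lpar1 and St18 were here. The choice by such sparse markers was therefore not tested.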

Additional observations from a re-analysis of the deposited data

How the results depend on the processing

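All values rest on 1 pooled library, so the spread between embryos is unknown, and genes with few UMIs are limited by depth. The 22 alternatives were run for the counts given here. All but the minimum of 50 UMIs, which alters no ratio, were also run for the 74 named genes. They were not run for the other lists or the comparisons with layer 6-, layer 5- and upper-layer-like barcodes, except that leaving out the progenitor-marked barcodes was run for those too. It turned Neurog2 from a log2 ratio of 1.34 to -0.69 and the summed radial glia genes from 284 against 200.4 CPM to 173 against 184 CPM, and left the counts of subplate and layer 6 genes against the 3 other sets as they were. The count of 14 higher subplate genes ran from 13 to 18, that of 9 higher layer 6 genes from 8 to 10, that of 6 lower upper-layer genes from 5 to 8, and 4 of 5 left-out markers were higher in each of the 3 alternatives run for them. The 4 lower layer 5 genes became 2 on separate UMIs. The 337 lower genes became 727 in the 69 members with Y-linked UMIs only, 205 when Nr4a2 was left out of the choice, and 572 in the 107 members with at least 3 markers. With a minimum of 50 UMIs 1262 genes were higher and 699 lower, since more genes were compared. For the other changes the cause was not tested. Of 74 named genes 60 were past 1.5-fold, and all 1260 of their values under the alternatives kept their direction. This is a weak check, since the 60 were taken for their size and the alternatives reused many members, such as 167 of 250 without St18. Of the 1260 values 38 fell under 1.5-fold, in 14 genes. No paired analysis was possible because all samples are 1 group in 1 matrix.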

Other observations

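Some neuropeptide genes differed in members. Of 25 neuropeptide and neuromodulator genes 6 could be compared, of which 3 were at least 1.5-fold higher and 1 lower. The shares over all genes were 7.3% higher and 3.74% lower. Cck stood at 158 against 85.8 CPM in the remaining barcodes, a log2 ratio of 0.88 (0.75 to 1.02), and was held by 52.8% of members and 39.7% of the remaining barcodes at equal depth. Npy stood at 147 against 86.6 CPM, a log2 ratio of 0.76 (0.63 to 0.90), although 1 remaining barcode alone held 545 of the 2660 Npy UMIs there. Oprl1, the nociceptin receptor, stood at 32.7 against 17.9 CPM, a log2 ratio of 0.87 (0.56 to 1.16). The lower gene was Sst, with 443 of the 550 UMIs of the remaining barcodes in 1 barcode, while 3.6% of members and 2.78% of the remaining barcodes held it.

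Of 12 measured immediate early genes none was at least 1.5-fold higher and 4 were lower, namely Fos with a log2 ratio of -0.69 (-0.77 to -0.61), Nr4a1 (under 1.5-fold without the progenitor-marked barcodes), Nr4a3 and Bdnf, while Jun at 0.08 (-0.01 to 0.17) and Egr1 at 0.20 (-0.08 to 0.47) differed by less. Of 6 measured claustrum and lateral pallium genes Gnai1 was higher, with 0.77 (0.60 to 0.95), and Nr2f2 lower, with -0.92 (-1.36 to -0.51), and the median was 0.07. For both of these lists the shares over all genes were 7.3% higher and 3.74% lower. Nr4a2 also marks the claustrum, and Gng2, a further gene of that list, was at -0.02 (-0.10 to 0.05).

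The 288 barcodes left out for high Reln held 73.6 CPM of Nxph4 and 16.9 CPM of Nr4a2, against 34.5 and 66.7 CPM in the remaining barcodes, so Nxph4 and Nr4a2 differed in opposite directions there. St18 was at 4.64 CPM in them and Lpar1 had 0 UMIs, which allows up to 0.744 CPM by the exact Poisson interval.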
